A study of Mus musculus with 9 samples.

Results

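The genes described here are 10 genes of hepatic stellate cells outside the collagen family: Sparc, Lum, Dcn, Ecm1, Reln, Lrat, Des, Pdgfrb, Colec11 and Hgf. They were chosen by symbol, with earlier results of these data known, and each was found once among the 23444 rows of the deposited expression tables. Liver RNA of C57Bl6 mice, a common inbred laboratory strain, was sequenced in 9 libraries of 3 groups with 3 libraries each. The treated group came from mice of 20 to 22 months given chow with PD-0332991 for 2 weeks, at an amount labelled as 450 with the unit printed as mg/k. The aged group came from untreated mice of 20 to 22 months, and the young group from untreated mice of 2 months. PD-0332991 is palbociclib, a drug that blocks the kinases CDK4 and CDK6 of the cell cycle, and the series as titled concerns Cdk4 in the fatty liver of old age. The labels name no altered gene and no transgene in any group. No young mice received the drug, so a drug effect at 2 months cannot be read from these groups.

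Stellate cells lie between the hepatocytes and the endothelium of the liver sinusoids. In the resting state they store vitamin A as retinyl esters, and after injury they can become contractile, matrix-producing myofibroblasts. They also act as the pericytes of the sinusoid and send growth factors to the neighbouring hepatocytes. They are a minority of liver cells, and RNA of the whole liver was measured here, so fewer stellate cells and less RNA per stellate cell cannot be told apart.

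The deposited values are TPM, a relative abundance per transcript length. TPM keeps no sequencing depth, so the depth behind each value is unknown. The listed genes held 53.1% to 57.7% of the full TPM scale in each library, and the albumin gene Alb stood at 0 in all 9 tables. Changes are differences of log2(TPM + 0.5), with the standard error (SE) or 95% interval, and this scale shrinks the changes of genes at low levels. A gene was called changed at a Benjamini-Hochberg adjusted p under 0.05 in limma, fitted to the 10161 genes with at least 1 TPM in at least 3 libraries. All 10 stellate cell genes met that minimum, Hgf in only 3 libraries, Pdgfrb in 4, Lum in 7, Lrat in 8 and the other 6 in all 9. Whether each library is a separate mouse is not stated, so the p-values reflect library-to-library spread, which may be technical.

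The data show 1 called gene among the 10. The shares called among all tested genes were 1.1% in aged against young, 1.45% in treated against aged and 6.88% in treated against young livers. Sparc was lower in aged livers than in young livers, and lower than in young livers also in aged livers given PD-0332991. Its call was kept in 9 of 16 alternative settings in aged against young livers and in 13 of 16 in treated against young livers. Lum had a similar pattern of levels with a larger spread between libraries and did not pass the test. Dcn, Ecm1, Reln, Lrat, Des, Pdgfrb and Hgf had overlapping levels in all 3 groups. Colec11 overlapped between aged and young livers and did not pass the test in any comparison. No gene of the 10 differed detectably between treated and untreated aged livers. The fibrillar collagen gene Col3a1, measured for comparison, was lower in both aged groups than in young livers.

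The levels fell into 3 ranges, and TPM allows them to be set side by side because it is per transcript length. Over all 9 libraries Ecm1 averaged 54.0 TPM and Dcn 44.7 TPM. Sparc averaged 16.4 TPM and Colec11 15.9 TPM. The remaining 6 genes were low, with Des at 2.28 TPM, Reln at 2.07 TPM, Lum at 1.88 TPM, Lrat at 1.82 TPM, Pdgfrb at 1.03 TPM and Hgf at 0.985 TPM. Only at 2 places in this order did the ranges over libraries separate, between Dcn and Sparc and between Colec11 and Des. All other neighbours in the order had overlapping library ranges.

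**Figure D1:**
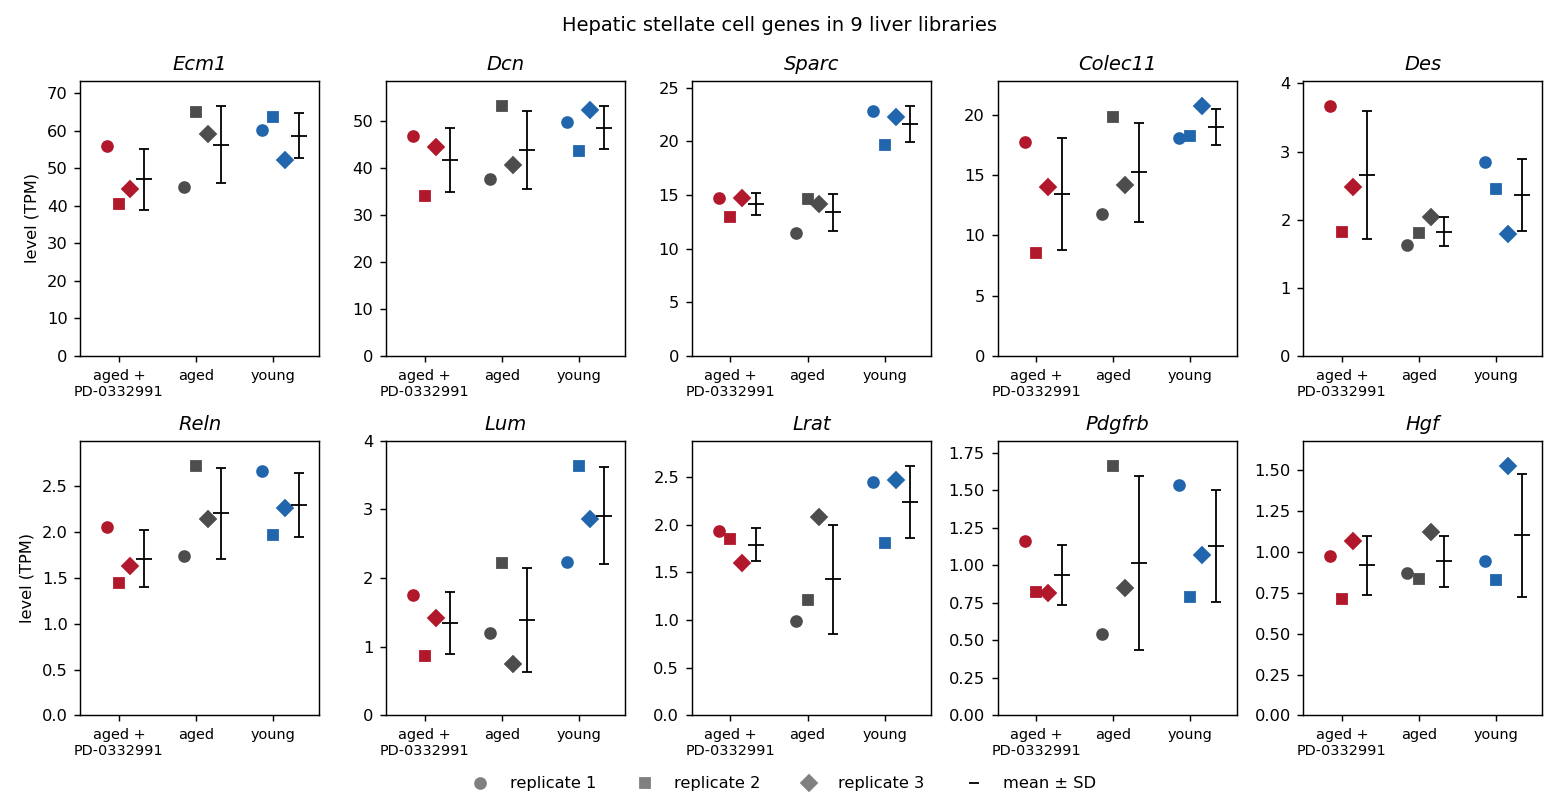
Level in TPM (vertical axis, linear, from 0) of the 10 stellate cell genes in aged livers given PD-0332991, aged livers and young livers. Points are single libraries, with 1 shape per replicate number, and bars are the mean ± SD of 3 libraries; the 3 young libraries of Sparc (19.7 to 22.8 TPM) lie above the other 6 (11.4 to 14.7 TPM).

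Sparc encodes a secreted, collagen-binding matricellular glycoprotein that takes part in matrix assembly, and endothelial cells make it as well as stellate cells. The gene lies on chromosome 11 at 55394500 to 55423183, minus strand (mm10, GENCODE vM21). A promoter window is shown because it is the gene that changed, beside that of Ecm1, the most abundant of the 10, which did not pass the test. Both are RefSeq windows of GRCm38.p6, 250 bases before to 50 after an annotated start, read 5′ to 3′ on the minus strand at chr11:55420031-55420330 and chr3:95739520-95739819. The Ecm1 window lies at the 5′ end of the gene as GENCODE gives it, while the Sparc window lies inside the GENCODE gene, at an internal start that RefSeq annotates. Capitals mark matches on either strand to the TATA box, written TATAAA, the CCAAT box, the GC box, written GGGCGG, the E-box, written CANNTG, and the AP-1 site, written TGANTCA.
Sparc: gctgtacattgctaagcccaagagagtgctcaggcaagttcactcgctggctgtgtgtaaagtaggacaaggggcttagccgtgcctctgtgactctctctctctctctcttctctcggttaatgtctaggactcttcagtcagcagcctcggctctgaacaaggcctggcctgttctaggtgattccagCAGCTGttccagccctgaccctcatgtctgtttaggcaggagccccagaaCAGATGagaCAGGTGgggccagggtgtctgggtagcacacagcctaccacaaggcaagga
Ecm1: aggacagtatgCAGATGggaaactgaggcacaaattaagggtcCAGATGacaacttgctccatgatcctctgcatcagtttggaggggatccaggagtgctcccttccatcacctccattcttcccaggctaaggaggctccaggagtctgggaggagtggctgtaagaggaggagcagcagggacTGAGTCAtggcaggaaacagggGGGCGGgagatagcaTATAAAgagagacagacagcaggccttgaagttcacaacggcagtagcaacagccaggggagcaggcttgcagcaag
The Sparc window held 3 E-box matches and no match to the other 4 motifs. The Ecm1 window held 2 E-box matches and 1 match each to the TATA box, the GC box and the AP-1 site. Among 32544 promoters of the same length, 72.3% held an E-box match, 13.6% a TATA box, 35.9% a GC box, 37.4% a CCAAT box and 7.79% an AP-1 site. A match describes these letters and shows no binding. RefSeq promoter windows were matched for 7 of the 10 genes.

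Sparc stood at 14.7, 13.0 and 14.7 TPM in the treated libraries, at 11.4, 14.6 and 14.2 TPM in the aged libraries, and at 22.8, 19.7 and 22.3 TPM in the young libraries. All 3 young libraries lay above all 6 libraries from mice of 20 to 22 months, and the treated and aged libraries overlapped. The means were 14.1 ± 1.01 TPM in treated, 13.4 ± 1.72 TPM in aged and 21.6 ± 1.69 TPM in young livers (SD, n = 3 each). In aged against young livers Sparc fell by 0.67 on the log2 scale (SE 0.12, limma adjusted p = 0.0261). On that scale the level fell by 37.3%. Across all tested genes 1.1% were called in this comparison, and 0.453% were called lower. The adjusted p passed 0.05 when any 1 of the young libraries or the aged library 1 was left out, with values of 0.118 without young library 1, 0.0551 without young library 2, 0.0923 without young library 3 and 0.0901 without aged library 1, while the log2 difference stayed between -0.75 and -0.57 under every alternative tried. The call also ended with no filter on low values (adjusted p = 0.0541), with only the 6 libraries compared (0.0689) and with the replicate number as a block (0.0504).

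In treated against young livers Sparc fell by 0.59 on the log2 scale (SE 0.12, limma adjusted p = 0.0159), where 6.88% of all tested genes were called and 4.29% were called lower. That call ended without young library 1 (adjusted p = 0.0694), without young library 3 (0.0617) and without treated library 2 (0.0719). In treated against aged livers the difference was 0.08, with a 95% interval from -0.18 to 0.34 and a limma adjusted p of 0.768. The 2 comparisons with young livers share the young libraries, and those with aged livers share the aged libraries, so they are not independent of each other.

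Because endothelial cells also make Sparc, markers of other liver cells were read in the same libraries. The 14 sinusoidal endothelial markers, all tested, summed to between 85.0 and 102.8 TPM in treated, 90.7 and 117.2 TPM in aged and 102.2 and 110.9 TPM in young libraries, and none was at 0 in all libraries. In aged against young livers 1 of the 14 was called, against 1.1% of all tested genes. This was Lyve1, a hyaluronan receptor of sinusoidal and lymphatic endothelium, at 1.26 ± 0.173 TPM in treated, 0.643 ± 0.417 TPM in aged and 2.08 ± 0.489 TPM in young livers (SD, n = 3 each), with a log2 difference of -1.22 in aged against young livers (limma adjusted p = 0.0449). That call ended with a pseudocount of 0.1 (adjusted p = 0.0528), with no filter (0.0955) and with only the 6 libraries compared (0.108). Clec4g and Fcgr2b, the most abundant of these markers, averaged 38.5 and 13.0 TPM in treated, 40.3 and 14.7 TPM in aged and 39.0 and 15.2 TPM in young livers. In aged against young livers 3 of the 14 were lower without overlap and 0 higher, against 9.57% lower over all tested genes. In treated against young livers 13 of the 14 were below 0, against 64.9% of all tested genes. Their median there was -0.22, against -0.10, and 5 were lower without overlap, against 24.4%. The part of endothelial cells in the Sparc difference was not tested.

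Lum and Dcn encode lumican and decorin, small leucine-rich proteoglycans that bind collagen fibrils. They are neighbours on the plus strand of chromosome 10, Dcn at 97479609 to 97518143 and Lum at 97565128 to 97572703, with 47.0 kb between them. Lum stood at 1.76, 0.871 and 1.42 TPM in treated, 1.20, 2.22 and 0.750 TPM in aged, and 2.23, 3.64 and 2.86 TPM in young libraries. The young libraries lay above all others, by a narrow margin over the highest aged library. The log2 difference was -0.91 in aged against young livers (95% interval -1.54 to -0.28, limma adjusted p = 0.169) and -0.89 in treated against young livers (95% interval -1.52 to -0.26, limma adjusted p = 0.0846). Between treated and aged livers it was 0.01 (95% interval -0.62 to 0.65). The highest library exceeded the lowest 2.96-fold within the aged group.

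Dcn, at a level far above that of Lum, stood at 46.9, 34.0 and 44.3 TPM in treated, 37.7, 53.1 and 40.6 TPM in aged, and 49.7, 43.5 and 52.4 TPM in young libraries. The groups overlapped, and the highest of all 9 libraries was an aged one. Its log2 difference was -0.16 in aged against young livers (95% interval -0.49 to 0.18) and -0.07 in treated against aged livers (95% interval -0.40 to 0.27). The intervals hold both decreases and increases. A list of small leucine-rich proteoglycans other than Lum and Dcn held 10 genes, of which 4 were tested and none was called in any comparison. Bgn (biglycan) was the most abundant, at 24.4 ± 2.76 TPM in treated, 26.0 ± 3.44 TPM in aged and 27.8 ± 1.93 TPM in young livers (SD, n = 3 each), followed by Prelp at 5.73, 6.16 and 7.30 TPM in the same order of groups. Kera and Epyc were listed at 0 in all 9 libraries.

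Ecm1 encodes a secreted matrix protein that in mouse liver holds latent TGF-beta inactive, and hepatocytes also make it. It stood at 56.1, 40.6 and 44.5 TPM in treated, 45.0, 64.9 and 59.1 TPM in aged, and 60.3, 63.7 and 52.1 TPM in young libraries. The groups overlapped, with treated libraries 2 and 3 lowest of all 9. The log2 difference was -0.25 in treated against aged livers (95% interval -0.60 to 0.09, limma adjusted p = 0.412) and -0.32 in treated against young livers (95% interval -0.67 to 0.02, limma adjusted p = 0.225). In aged against young livers it was -0.07 (95% interval -0.41 to 0.27). The gene is on chromosome 3 at 95734147 to 95739569, minus strand. Of 18 TGF-beta pathway genes, 13 were tested and none was called in any comparison. Their median log2 differences were -0.03 in aged against young livers, -0.08 in treated against aged livers and -0.10 in treated against young livers. Over all tested genes the medians were -0.01, -0.09 and -0.10 in the same order of comparisons. The most abundant were Eng, a co-receptor of endothelial cells, at 11.6 TPM in treated, 12.4 TPM in aged and 12.7 TPM in young livers, and Ltbp4, a latent TGF-beta binding protein, at 5.32, 5.72 and 6.83 TPM.

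Reln encodes reelin, a secreted glycoprotein best known from the developing brain, which in liver marks stellate cells. Its gene spans 460.2 kb of chromosome 5 on the minus strand, from 21884454 to 22344702. Reln stood at 2.06, 1.45 and 1.63 TPM in treated, 1.75, 2.73 and 2.15 TPM in aged, and 2.66, 1.97 and 2.27 TPM in young libraries. The 3 groups overlapped. The log2 difference was -0.28 in treated against aged livers (95% interval -0.68 to 0.11, limma adjusted p = 0.426) and -0.06 in aged against young livers. Of 5 genes for reelin receptors and adaptors, 2 were tested, Dab2 and Itga3, and neither was called.

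Lrat encodes lecithin retinol acyltransferase, the enzyme that forms the retinyl esters stored in stellate cells (chromosome 3, 82892579 to 82903973, minus strand). It stood at 1.93, 1.85 and 1.60 TPM in treated, 0.994, 1.22 and 2.08 TPM in aged, and 2.45, 1.81 and 2.47 TPM in young libraries. Aged libraries 1 and 2 were the lowest of all 9, and aged library 3 lay within the range of the young ones. The log2 difference in aged against young livers was -0.54 (95% interval -0.99 to -0.085, limma adjusted p = 0.258). Without aged library 3 the limma adjusted p was 0.0237, in a fit that called 696 of all tested genes, against 112 with all libraries. Over the fits without 1 library the adjusted p of Lrat ranged up to 0.567, and Lrat was called in 2 of 15 alternatives. Between treated and aged livers the log2 difference was 0.29 (95% interval -0.17 to 0.74, limma adjusted p = 0.492).

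Retinoid handling genes, a list of 26 that covers binding proteins, dehydrogenases, esterases and oxidases, were led in abundance by genes of hepatocytes. Of these, 21 were tested, and none was called in aged against young or in treated against aged livers. In treated against young livers 2 were called lower, against 4.29% of all tested genes. One was Ces1d, a carboxylesterase able to hydrolyse retinyl esters, at 160.0 ± 34.6 TPM in treated, 298.2 ± 101.7 TPM in aged and 370.8 ± 58.5 TPM in young livers (SD, n = 3 each), with a log2 difference of -1.22 in treated against young livers (limma adjusted p = 0.0316, or 0.0566 with the replicate block). The other was Ttr, transthyretin, which carries retinol-binding protein in plasma, with a log2 difference of -0.41 (limma adjusted p = 0.0357). The Ttr difference was -0.22 after quantile scaling (adjusted p = 0.413), and its call also ended with the median of ratios (0.0880), with no filter (0.0560) and with the replicate block (0.0690). Rbp4, the plasma retinol-binding protein itself, averaged 3193 TPM in treated, 3289 TPM in aged and 2953 TPM in young livers and was not called.

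Des encodes desmin, an intermediate filament protein of muscle and of rodent stellate cells (chromosome 1, 75360329 to 75368579, plus strand). It stood at 3.67, 1.82 and 2.48 TPM in treated, 1.63, 1.80 and 2.04 TPM in aged, and 2.85, 2.45 and 1.79 TPM in young libraries. The groups overlapped, and treated library 1 was the highest of all 9. The log2 difference was 0.41 in treated against aged livers (95% interval -0.071 to 0.88, limma adjusted p = 0.346), -0.29 in aged against young livers and 0.12 in treated against young livers. Smooth muscle cells also make desmin. Of 7 vascular smooth muscle markers 3 were tested and none was called, and the summed level of the list was 7.46 to 10.6 TPM in treated, 4.51 to 6.66 TPM in aged and 7.86 to 8.75 TPM in young libraries. Tagln, a smooth muscle and myofibroblast protein, averaged 5.998 ± 1.71 TPM in treated, 3.08 ± 0.752 TPM in aged and 5.45 ± 0.225 TPM in young livers (SD, n = 3 each). Its log2 difference of 0.85 in treated against aged livers had a limma adjusted p of 0.0580. The part of smooth muscle in the Des levels was not tested.

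Pdgfrb encodes a receptor for platelet-derived growth factor, a signal for growth and movement of stellate cells and pericytes, and lies on chromosome 18. It stood at 1.16, 0.825 and 0.818 TPM in treated, 0.544, 1.66 and 0.849 TPM in aged, and 1.53, 0.790 and 1.07 TPM in young libraries. The lowest and the highest of the 9 values were both from aged livers, a 3.06-fold range within that group. The log2 difference was -0.02 in treated against aged livers (limma adjusted p = 0.975), -0.14 in aged against young livers (0.855) and -0.17 in treated against young livers (0.747). Of 5 other PDGF ligands and receptors 2 were tested, Pdgfa and Pdgfc, and neither was called.

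Hgf encodes hepatocyte growth factor, which stellate cells release and which acts on the receptor Met of hepatocytes (chromosome 5, 16553495 to 16620152, plus strand). It stood at 0.972, 0.712 and 1.06 TPM in treated, 0.872, 0.833 and 1.12 TPM in aged, and 0.943, 0.827 and 1.52 TPM in young libraries. The groups overlapped, with young library 3 above the other 8. No difference passed the test, with log2 differences of -0.03 in treated against aged, -0.13 in aged against young and -0.16 in treated against young livers. Among 11 genes of HGF reception and activation 6 were tested. The 1 called was Spint2, an inhibitor of the protease that activates HGF, at 88.2 ± 0.599 TPM in treated, 107.2 ± 1.86 TPM in aged and 69.6 ± 5.12 TPM in young livers (SD, n = 3 each). It rose by 0.62 on the log2 scale in aged against young livers (limma adjusted p = 0.00798) and by 0.34 in treated against young livers (limma adjusted p = 0.0375, or 0.0655 with the replicate block). Spint2 is an epithelial gene as well. Plg and Hpn, proteases of hepatocytes and the most abundant of the list, were not called.

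Colec11 encodes a collectin, a secreted lectin that recognises sugars on microbes and starts the lectin pathway of complement with the MASP proteases (chromosome 12, 28594173 to 28623377, minus strand). It stood at 17.8, 8.52 and 14.0 TPM in treated, 11.8, 19.8 and 14.2 TPM in aged, and 18.1, 18.3 and 20.7 TPM in young libraries. All treated libraries lay below all young ones, the highest treated by a small margin, and the aged libraries spanned both. The log2 difference in treated against young livers was -0.54 (95% interval -1.10 to 0.02, limma adjusted p = 0.216). Of 8 listed lectin pathway genes 7 were tested. In treated against young livers 2 of these were called lower, against 4.29% of all tested genes. Masp1, the protease, averaged 7.61 ± 0.582 TPM in treated, 10.3 ± 1.30 TPM in aged and 12.7 ± 1.35 TPM in young livers (SD, n = 3 each), a log2 difference of -0.70 in treated against young livers (limma adjusted p = 0.0102). Colec12, a scavenger receptor of the collectin family, had a log2 difference of -0.54 in treated against young livers (limma adjusted p = 0.0179). The Colec12 difference was -0.49 in treated against aged livers (limma adjusted p = 0.0555) and -0.04 in aged against young livers. Mbl2 and Mbl1, the mannose-binding lectins of hepatocytes, were the most abundant and were not called.

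**Figure D2:**
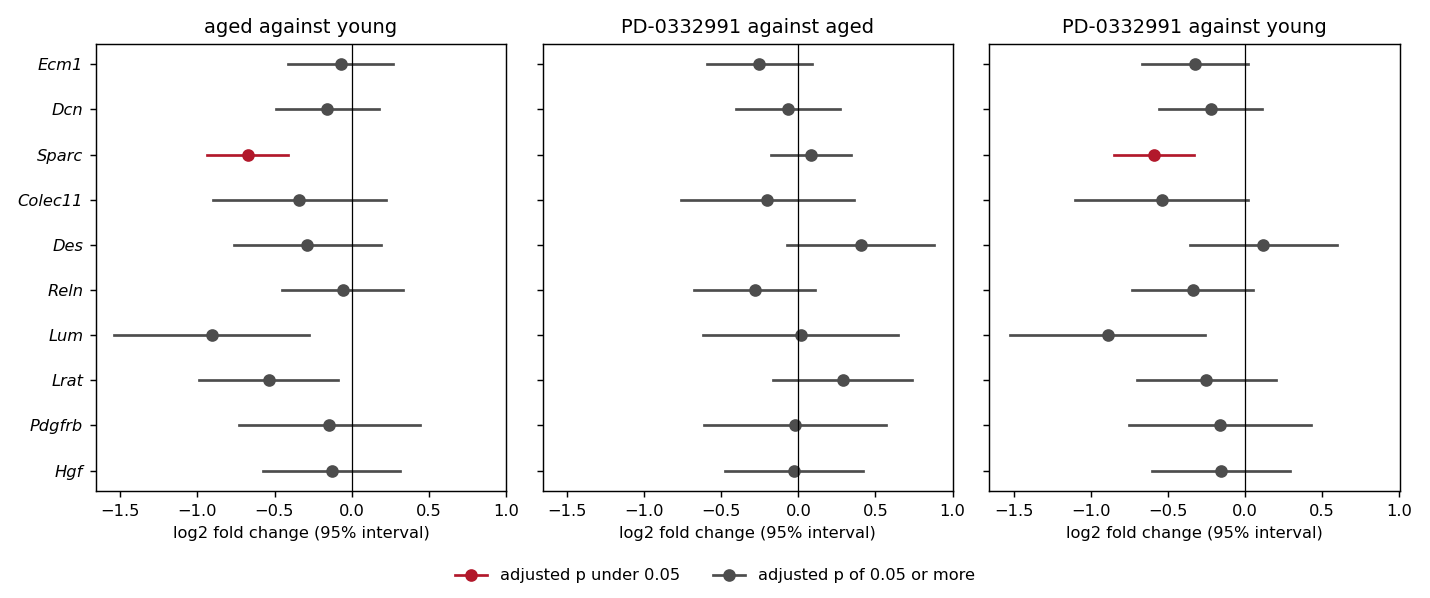
Log2 fold change on the log2(TPM + 0.5) scale (horizontal axis) of the 10 genes, ordered down the page by mean TPM, in aged against young, treated against aged and treated against young livers. Points are limma estimates from 3 libraries per group, lines are 95% intervals, and red marks an adjusted p under 0.05, which only Sparc reached (-0.67 and -0.59).

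Set side by side, the 10 genes had log2 differences below 0 in aged against young livers in 10 of 10 cases, with a median of -0.22. Over all tested genes 52.1% were below 0 and the median was -0.01. At an unadjusted p under 0.05 there were 3 genes (Sparc, Lum and Lrat), against 15% of all tested genes, and in 2 genes the groups did not overlap, against 18.4% of all tested genes without overlap and 9.57% without overlap and lower. The count below 0 was 8 of 10 without young library 1, 9 without young library 3 and 7 without aged library 1, and the median was -0.14 without aged library 1 and -0.37 without aged library 2.

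In treated against aged livers 6 of the 10 genes were below 0, against 66.7% of all tested genes, and the median was -0.03, against -0.09 over all tested genes. limma called 0 of the 10 at an adjusted p under 0.05, with 1.45% of all tested genes called, and 0 of the 10 at an unadjusted p under 0.05, with 18.2% of all tested genes. No gene of the 10 had groups without overlap, where 22.4% of all tested genes did. The direction of the set was not stable, with 2 of 10 below 0 without treated library 2, 8 without aged library 1 and 3 when libraries were scaled by the median of ratios.

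In treated against young livers 9 of the 10 were below 0, with a median of -0.29, against 64.9% and -0.10 over all tested genes. Des was the exception. At an unadjusted p under 0.05 there were 2 genes, Sparc and Lum, against 24.8% of all tested genes. The groups did not overlap in 3 genes (Sparc, Lum and Colec11), all lower in treated livers, against 33.9% of all tested genes without overlap and 24.4% without overlap and lower. Among all genes, 112 were called in aged against young livers (66 higher), 147 in treated against aged livers (62 higher and 85 lower, against 109 higher and 56 lower under the median of ratios) and 699 in treated against young livers (263 higher and 436 lower, against 359 and 250 under the median of ratios). Sparc was lower under each of these scalings.

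The libraries of a group differed in a like manner for most of the 10 genes. Among treated libraries, library 1 was the highest for 9 of the 10 genes and library 2 the lowest for 8. Over all tested genes the shares were 35.0% highest in library 1 and 42.2% lowest in library 2. Among aged libraries, library 1 was the lowest for 8 of the 10 genes and library 2 the highest for 7, where the shares over all tested genes were 34.4% and 32.6%. Among young libraries, library 2 was the lowest for 6 of the 10 genes, against 40.0% of all tested genes. The summed level of the 10 genes was 103.6 to 147.0 TPM in treated, 112.8 to 162.9 TPM in aged and 156.6 to 163.5 TPM in young libraries.

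**Figure D3:**
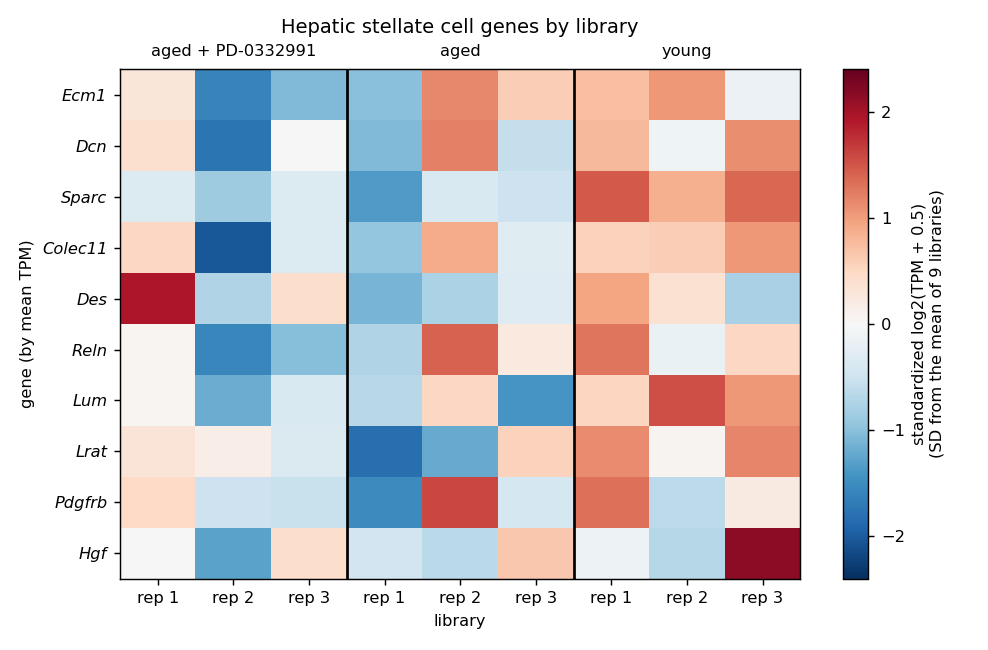
Standardized log2(TPM + 0.5) of each of the 10 genes (rows, by mean TPM) in the 9 libraries (columns, grouped as treated, aged and young), where the colour is the distance from the gene's own mean in SD over 9 libraries. Treated library 2 and aged library 1 are blue, below the mean, in most rows, and treated library 1 and aged library 2 are in most rows above the other libraries of their groups.

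Other lists did not all share this library order, and some went more often against it than with it in treated libraries. Over all tested genes 29.2% were lowest in treated library 1. The shares highest were 29.5% in treated library 2 and 35.5% in treated library 3. Of 21 tested stellate quiescence genes, treated library 1 was the highest among treated libraries for 14 and library 2 the lowest for 13. Of the 14 sinusoidal endothelial markers, treated library 1 was the lowest for 10 and library 2 for 2, and library 3 was the highest for 7 and library 2 for 5. Of 11 tested Kupffer cell markers, the marker genes of resident liver macrophages, treated library 1 was the lowest for 6 and library 2 the highest for 7. Of 9 tested hepatocyte markers, treated library 1 was the highest for 6 and library 2 the lowest for 5. The part of tissue sampling or cell mixture in these orders was not tested.

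Further genes of stellate cells were read from lists chosen by function. Of 32 retinoid and quiescence genes, 21 were tested. None was called in aged against young or treated against aged livers. In treated against young livers 1 was called lower, against 4.29% of all tested genes. That gene was Angptl6, an angiopoietin-like secreted factor, at 3.39 ± 0.766 TPM in treated, 5.32 ± 1.56 TPM in aged and 6.87 ± 0.972 TPM in young livers (SD, n = 3 each), with a log2 difference of -0.93 in treated against young livers (limma adjusted p = 0.0266, or 0.0578 with no filter). Cxcl12, a chemokine of stromal and endothelial cells, averaged 82.9 TPM in treated, 85.6 TPM in aged and 86.8 TPM in young livers, with no detectable difference. The median log2 difference of the list was -0.16 in aged against young, -0.11 in treated against aged and -0.28 in treated against young livers. Over all tested genes it was -0.01, -0.09 and -0.10 in the same order.

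Of 25 activation and myofibroblast genes 12 were tested. None was called in aged against young or in treated against aged livers, and Postn was lower in treated against young livers. Postn, periostin, a matricellular protein of fibroblasts, averaged 0.670 ± 0.373 TPM in treated, 0.906 ± 0.234 TPM in aged and 1.72 ± 0.163 TPM in young livers (SD, n = 3 each), with a log2 difference of -0.97 in treated against young livers (limma adjusted p = 0.0301). That call ended after quantile scaling (adjusted p = 0.0606), with no filter (0.0526) and with the replicate block (0.0577). Spp1, osteopontin, which bile duct cells also make, was the most abundant at 8.36 TPM in treated, 14.2 TPM in aged and 16.8 TPM in young livers and did not pass the test. The median of the list was -0.12 in aged against young, 0.05 in treated against aged and -0.05 in treated against young livers. Over all tested genes it was -0.01, -0.09 and -0.10 in the same order.

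Fibrillar collagens are the main product of activated stellate cells and the ligands of the Sparc protein. Of 5 listed, 3 were tested. Col3a1 stood at 2.71, 1.69 and 1.68 TPM in treated, 1.68, 2.35 and 2.36 TPM in aged, and 6.56, 4.80 and 4.95 TPM in young libraries. Every young library lay above every other library. Col3a1 fell by 1.17 on the log2 scale in aged against young livers (SE 0.19, limma adjusted p = 0.0186, or 0.0517 with no filter) and by 1.25 in treated against young livers (SE 0.19, limma adjusted p = 0.00603). Col1a2 averaged 1.04 TPM in treated, 1.16 TPM in aged and 2.43 TPM in young livers, with a log2 difference of -0.98 in treated against young livers (limma adjusted p = 0.0287, or 0.0553 with no filter) and -0.84 in aged against young livers (limma adjusted p = 0.108). Col1a1, at 0.594, 0.675 and 1.34 TPM in the same order of groups, was not called. None of the 3 differed detectably between treated and aged livers, with log2 differences of -0.07 for Col3a1, -0.14 for Col1a2 and -0.12 for Col1a1. Of the 11 genes of the SPARC family and related matricellular proteins beside Sparc itself, 3 were tested and none was called, with Smoc1 at 24.7 TPM in treated, 24.0 TPM in aged and 21.9 TPM in young livers and Smoc2 at 1.20, 1.76 and 1.79 TPM.

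Markers of other mesenchymal and non-parenchymal cells were read beside these values. Of 12 portal fibroblast markers 4 were tested. Of these 4, 2 were below 0 in aged against young livers, against 52.1% of all tested genes. In treated against young livers 3 were below 0, against 64.9% of all tested genes. The median log2 difference of the 4 there was -0.40, against -0.10 over all tested genes. Dpt, dermatopontin, was lower in aged against young livers (log2 difference -1.12, limma adjusted p = 0.0362, or 0.0815 with no filter and 0.0794 with only the 6 libraries compared), and Gas6, the ligand of the TAM receptors, was higher in treated against young livers (log2 difference 0.98, limma adjusted p = 0.0107). Of 8 mesothelial markers 2 were tested and none was called. Krt8, which hepatocytes also express, held nearly all of that list's level. Of 7 cholangiocyte markers 3 were tested, and Sox9, a bile duct transcription factor, was higher in aged against young livers (log2 difference 1.03, limma adjusted p = 0.0328). The Sox9 call ended with no filter (adjusted p = 0.0545), with only the 6 libraries compared (0.0933) and with the replicate block (0.0563).

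Of 11 tested Kupffer cell markers, 5 were lower in treated against young livers (Clec4f, Csf1r, Vsig4, Cd68 and Timd4), where 4.29% of all tested genes were lower, and none was called in the other comparisons. The calls of 3 ended under other scalings, with adjusted p after quantile scaling and with the median of ratios of 0.0693 and 0.0699 for Vsig4, 0.0738 and 0.0701 for Cd68, and 0.0966 and 0.0635 for Timd4. With the replicate block the adjusted p was 0.0549 for Vsig4, 0.0612 for Cd68 and 0.0748 for Timd4. With no filter it was 0.0681 for Vsig4, 0.0724 for Timd4 and 0.0526 for Csf1r. Clec4f, a lectin restricted to Kupffer cells, averaged 18.1 ± 0.529 TPM in treated, 22.3 ± 2.95 TPM in aged and 30.7 ± 6.36 TPM in young livers (SD, n = 3 each), with a log2 difference of -0.72 in treated against young livers (limma adjusted p = 0.0183). C1qc and C1qa, the most abundant of the 11, were not called in any comparison. The 11 markers summed to 127.2 to 133.6 TPM in treated, 131.1 to 196.6 TPM in aged and 139.6 to 221.8 TPM in young libraries, and none was at 0 in all libraries. Among young libraries, library 1 was the lowest for 11 of the 11, against 29.2% of all tested genes. In treated against aged livers all 11 were below 0, against 66.7% of all tested genes. There 6 did not overlap, against 22.4% of all tested genes. Of 9 tested hepatocyte markers only Ttr was called, in treated against young livers. The part of these cell types in the levels of the 10 genes was not tested.

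**Figure D4:**
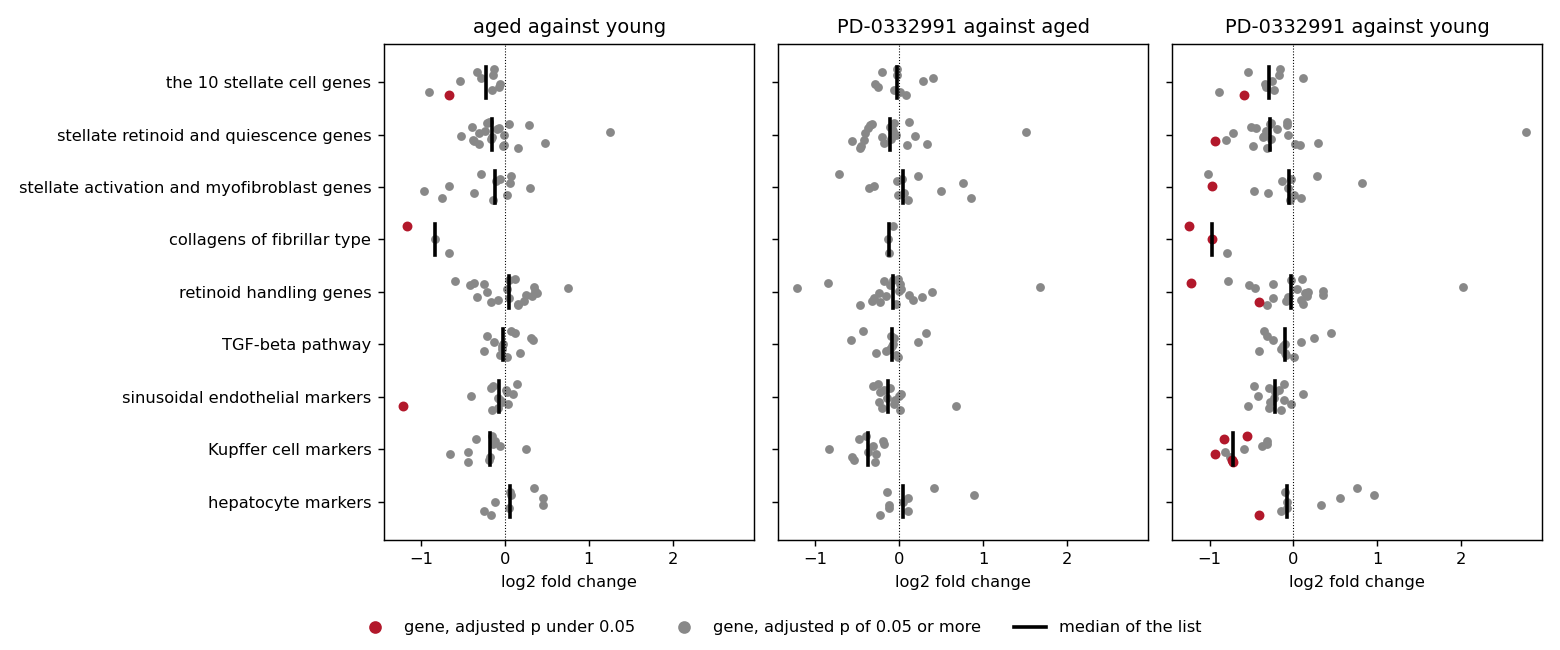
Log2 fold change (horizontal axis) of single genes of 9 lists (rows) in aged against young, treated against aged and treated against young livers. Each point is a gene, red where its adjusted p was under 0.05, and the black bar is the median of the list, which for the 10 stellate cell genes was -0.22, -0.03 and -0.29.

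Over the 18 lists together, 131 of 213 genes were tested. The lists were chosen with earlier results of these data known, so the shares called in them are not independent of the data. In aged against young livers 2 were higher and 3 lower (3.82% called, against 1.1% of all tested genes). In treated against aged livers none was called by limma (0 of 131, against 1.45% of all tested genes), and 25 had an unadjusted p under 0.05. Against young livers, treated livers had 2 higher and 13 lower (11.5% called, against 6.88% of all tested genes). None of the 5 called in aged against young livers kept an adjusted p under 0.05 in every fit without 1 library, and 1 of the 15 called in treated against young livers did, Col3a1.

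The genes whose levels followed the mean standardized level of the 10 genes most closely over the 9 libraries, among 7946 genes compared, were Fech (Pearson r = 0.947), Tbce (0.937), Apoa1 (0.935), Acsl5 (0.932), Vps16 (0.929), Ifnar2 (0.925), Fggy (0.924), Sc5d (0.917), Rell1 (0.915) and Fbxl12 (0.913). These values are a description over 9 libraries, and genes read from the same library share its depth and its mixture of cells. They are also the highest of 7946 correlations and were picked for being high, so their size is no evidence of a link to the 10 genes. Fech, which makes haem, stood between 35.9 and 47.2 TPM in all libraries. Without Ecm1, Colec11 and Hgf in the mean, 5 of the 10 nearest genes were shared.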

How the data were processed

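The authors deposited 1 table per library of gene symbols and TPM values, made with kallisto on mm10 per the submitters' processing notes. For the kallisto version, the annotation and the gene-level summary, the entry is "not given in the sources used here". Libraries were made with an Illumina TruSeq RNA kit, per the labels' protocols. Groups and replicate numbers were taken from the labels. The tables hold 23444 rows, 6604 genes were at 0 in all libraries, and 4 rows with a repeated symbol were left out. The 10 genes and the 18 lists were chosen with earlier results of these data known.

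All 9 libraries were fitted with limma 3.58.1 in R 4.3.3 on log2(TPM + 0.5), with group as the only term, an intensity trend and robust variances, two-sided, and Benjamini-Hochberg adjustment over the 10161 genes with at least 1 TPM in at least 3 libraries. The fit was tested on simulated data. The genes named were the 10 genes, called list genes (up to 4 per list and comparison by adjusted p), the 2 most abundant of each list, Col1a1, Col1a2, Col3a1 and the 10 closest in pattern. Lyve1, Dpt and Sox9 fall under the called genes; Timd4, the fifth called Kupffer marker, was named to complete a count of 5 after its values were seen. Alternatives were other pseudocounts (0.1 and 1), filters, scalings, array weights, a fit of 6 libraries, a replicate block and leaving out each library. Promoters came from RefSeq.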

Additional observations from a re-analysis of the deposited data

How the results depend on the processing

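Sparc was lower against young livers in both comparisons under every alternative, and its call was kept in 9 of 16 in aged against young livers and 13 of 16 in treated against young livers. Of the 10 genes, those called in aged against young livers numbered 0 with no filter, 0 with 6 libraries, 0 with the block and 2 with array weights, and 0 to 2 without 1 library. In treated against young livers they numbered 2 with array weights, 2 with 6 libraries and 0 to 1 without 1 library. Genes called in aged against young livers numbered 62 with no filter, 490 with array weights, 49 with 6 libraries and 16 to 696 without 1 library. In treated against aged livers they numbered 29, 271 and 25 in the same settings and 7 to 392 without 1 library. In treated against young livers they numbered 1354 with array weights, 1282 with 6 libraries and 153 to 475 without 1 library. With 7 of the 10 genes in the mean profile, 5 of the 10 closest genes were shared. The causes were not tested.

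Signs turned only for differences that were not called. In treated against aged livers Pdgfrb and Hgf were 0.13 and 0.092 after quantile scaling, Dcn, Pdgfrb and Hgf were 0.028, 0.040 and 0.033 after the median of ratios, and Lum, Pdgfrb and Hgf were -0.018, 0.066 and 0.055 with array weights. In treated against young livers Pdgfrb and Hgf were 0.028 and 0.043 after quantile scaling. Without 1 library, differences in aged against young livers ranged from -0.18 to 0.082 for Ecm1, -0.19 to 0.070 for Reln, -0.43 to 0.094 for Pdgfrb and -0.25 to 0.053 for Hgf. In treated against young livers they ranged from -0.10 to 0.32 for Des, -0.32 to 0.0059 for Pdgfrb and -0.28 to 0.025 for Hgf. In treated against aged livers they ranged from -0.026 to 0.14 for Sparc, -0.25 to 0.31 for Lum, -0.17 to 0.079 for Dcn, -0.26 to 0.27 for Pdgfrb, -0.43 to 0.082 for Colec11 and -0.10 to 0.079 for Hgf. Unknown depth limits the genes near 1 TPM most.

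Replicate numbers gave no clear pairing of the libraries, and a check on 9 libraries cannot exclude one. In their deviations, 2 of 9 same-number pairs correlated above 0.1 (range -0.22 to 0.17), as did 3 of 18 pairs of different numbers (range -0.22 to 0.23). Of the 9 libraries, 4 correlated best with their own number. With the replicate block 91 genes were called in aged against young livers, 60 in treated against aged livers and 492 in treated against young livers.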

Other observations

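Steap4, a metalloreductase that is used as a stellate cell marker and is also induced in hepatocytes, had the widest range among the retinoid and quiescence genes. It stood at 159.7, 218.0 and 166.1 TPM in treated, 132.9, 105.0 and 17.2 TPM in aged, and 27.9, 20.9 and 29.5 TPM in young libraries. Every treated library lay above every other library, and aged library 3 lay below all young ones. The log2 difference was 2.77 in treated against young livers (limma adjusted p = 0.0780) and 1.52 in treated against aged livers (limma adjusted p = 0.338), so neither passed the test. The summed level of that list was 323.6 to 367.8 TPM in treated, 199.6 to 287.2 TPM in aged and 197.1 to 228.8 TPM in young libraries. Steap4 was the largest part of that sum in treated livers, with means of 181.3 TPM in treated, 85.0 TPM in aged and 26.1 TPM in young livers. Of the 21 tested genes of the list, 16 were below 0 in treated against aged livers and 17 in treated against young livers. Among all tested genes the shares below 0 were 66.7% and 64.9%.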
